A study of Mus musculus with 19 samples.

Results

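Krueppel-like factors (KLFs) were measured as mRNA in the suprarenal abdominal aorta of male mice, and 9 of them expressed in the vessel wall are described here: Klf2, Klf3, Klf4, Klf5, Klf6, Klf7, Klf10, Klf13 and Klf15. They were taken by gene symbol from a table of 20408 genes, and all 9 were among the 14845 genes that reached 10 normalized counts in 4 mice or more and were tested. In mice that lacked the kinase IKKβ in smooth muscle, Klf2, Klf6 and Klf7 were lower after 24 h of angiotensin II (Ang II) than with saline. For each of these genes, the saline mice of that genotype had the highest group mean. In mice with intact IKKβ, Klf3 and Klf10 fell, and no member rose past the threshold with Ang II in either genotype. Of these calls, only those of Klf2 and Klf3 held whichever mouse was left out. The main test of whether this response to Ang II differed between the genotypes called no gene.

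The 19 mice were ApoE-/- C57BL/6 males, used at 8 weeks of age, and every mouse carried the tamoxifen-inducible Cre recombinase CreERT2 driven by the Acta2 (SMA) promoter and received tamoxifen. Mice with intact IKKβ (IKKβ+/+, labelled wild-type, SMA-CreERT2 ApoE-/-) were compared with littermates that also carried the floxed gene (IKKβ-/-, labelled knockout, SMA-CreERT2 Ikkb Flox/Flox ApoE-/-). The deletion was thus limited to cells that use the Acta2 promoter, and other cells of the wall kept the kinase. Saline or Ang II, at 500 to 1000 ng per kg per minute by the labels, was infused from subcutaneous osmotic pumps for 24 h. The methods name the upper of these doses for the sequenced mice. The groups held 5 IKKβ+/+ mice with saline, 5 IKKβ+/+ mice with Ang II, 4 IKKβ-/- mice with saline and 5 IKKβ-/- mice with Ang II.

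KLFs are zinc finger transcription factors that bind GC-rich and CACCC sequences, and most act as activators or repressors depending on the partner they recruit. In the vessel wall Klf2 and Klf4 are known for their induction by laminar flow in endothelium, where they raise nitric oxide synthase and thrombomodulin. Klf4 and Klf5 are known in smooth muscle for the change from a contractile to a proliferating state. Klf15 is induced by glucocorticoids and follows the circadian clock, and Klf10 is an early target of TGFβ.

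Each library gave between 11382573 and 19906694 reads assigned to genes. Values are normalized counts, which are reads divided by a factor that sets all libraries to a common depth. Ikbkb, the gene that encodes IKKβ, averaged 673 ± 78.6 normalized counts (SD, n = 5) in IKKβ+/+ mice with saline and 726 ± 46.3 (n = 5) with Ang II, against 515 ± 74.3 (n = 4) and 548 ± 87.9 (n = 5) in IKKβ-/- mice. The 8 smooth muscle markers and the 10 endothelial markers all passed the filter, and Acta2, which encodes smooth muscle actin, lay between 113336 and 301107 normalized counts. The mitochondrial share of reads was 5.99% to 9.07% in IKKβ+/+ mice with saline and 10.1% to 14.1% with Ang II, and it was far more spread in IKKβ-/- mice, at 8.89% to 38.7% with saline and 7.88% to 37.2% with Ang II. Mice X2385 (IKKβ-/-, Ang II) and X2406 (IKKβ-/-, saline) stood apart with shares above 30%. Each group has its own run of mouse numbers, so that a batch, if there was any, and the group cannot be told apart. Because the whole wall was sequenced, fewer cells of a type and less RNA per cell cannot be told apart, and the p-values cover the spread between these mice.

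The level of the 9 factors per kilobase of exon differed widely. The length was that of all annotated exons of a gene joined, so the order depends partly on annotation. It was 11243 bases for Klf3, with 9 annotated transcripts, and 1847 for Klf2, with 1. Klf6, a factor induced early after vascular injury, led with a median of 1093 normalized counts per kilobase over the 19 mice, and it was above Klf2 in all 19. Klf2 followed at 547 and Klf4 at 504, and these neighbours were not separated, since Klf2 was the higher in 13 of 19 mice. Klf13, a factor known from heart and T cells, had 235 per kilobase, and Klf7, the closest relative of Klf6, had 170. Klf15 had 165, Klf10 had 147 and Klf3 had 140, and neighbours in this stretch kept their order in only 9 to 12 of 19 mice. Klf5 was by far the lowest at 18.98 per kilobase, and its highest mouse lay below the lowest mouse of Klf3. Across mice the widest range in normalized counts was that of Klf15, whose highest mouse had 6.88 times the lowest, and the narrowest was that of Klf13, at 1.68 times.

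**Figure D1:**
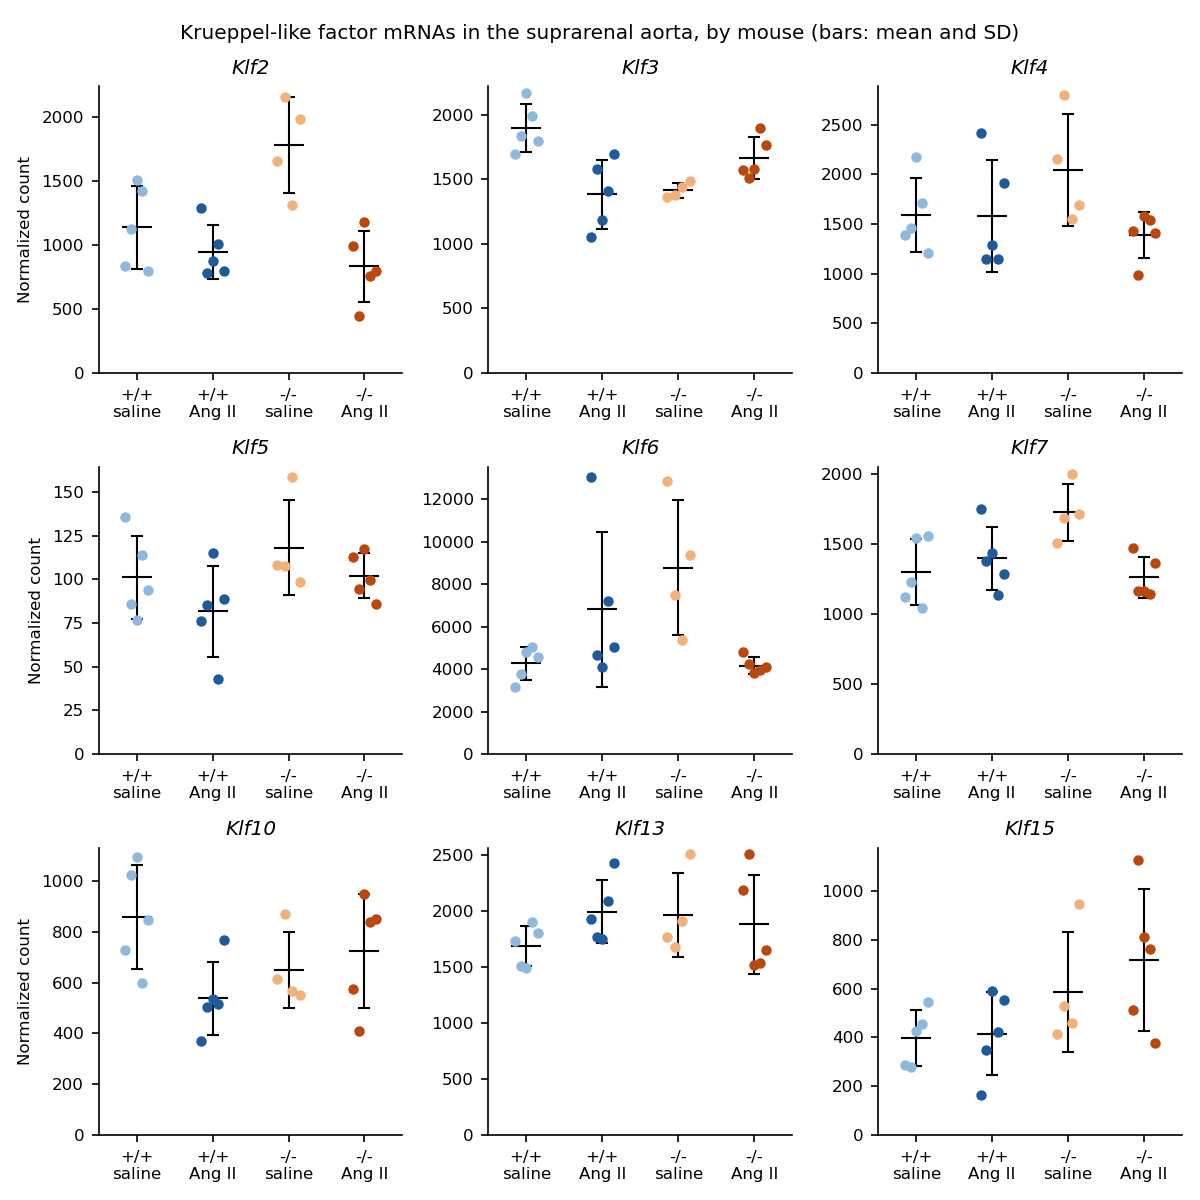
Normalized counts of the 9 Krueppel-like factors (vertical axes, from 0) in each of 19 mice (points), by IKKβ genotype and infusion, with bars for the mean and SD. For Klf2, Klf6 and Klf7 in IKKβ-/- mice, every Ang II mouse lay below every saline mouse, and the same held for Klf3 in IKKβ+/+ mice.

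Sequence upstream of the start site is shown for Klf2, Klf6 and Klf7, the members that fell together, and for Klf3, which fell in IKKβ+/+ mice. The windows come from RefSeq (GRCm38.p6). They hold the 250 bases before the RefSeq start, cut where an exon of the gene annotated in Gencode M21 begins within them. Capitals mark the GC box, which is GGGCGG, the E-box, which is CACGTG, the CACCC box, searched as CCACCC, and the MEF2 site, all on either strand. For Klf2 the window is chr8:72318812-72319032 (+ strand), for Klf6 chr13:5861239-5861481 (+), for Klf7 chr1:64121492-64121639 (-), which lies in the first intron of a longer transcript, and for Klf3 chr5:64803271-64803387 (+).
Klf2: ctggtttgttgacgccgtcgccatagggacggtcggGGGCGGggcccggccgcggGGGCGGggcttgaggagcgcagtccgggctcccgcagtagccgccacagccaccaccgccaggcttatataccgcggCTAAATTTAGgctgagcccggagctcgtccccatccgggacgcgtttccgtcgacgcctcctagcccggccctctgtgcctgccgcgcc
Klf6: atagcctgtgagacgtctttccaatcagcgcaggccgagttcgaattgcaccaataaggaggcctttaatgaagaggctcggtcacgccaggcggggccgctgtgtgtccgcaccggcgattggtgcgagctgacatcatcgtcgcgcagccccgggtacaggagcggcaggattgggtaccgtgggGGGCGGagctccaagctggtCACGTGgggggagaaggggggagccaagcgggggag
Klf7: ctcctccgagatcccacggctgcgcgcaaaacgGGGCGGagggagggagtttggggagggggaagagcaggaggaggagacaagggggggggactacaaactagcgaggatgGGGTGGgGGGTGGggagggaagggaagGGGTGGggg
Klf3: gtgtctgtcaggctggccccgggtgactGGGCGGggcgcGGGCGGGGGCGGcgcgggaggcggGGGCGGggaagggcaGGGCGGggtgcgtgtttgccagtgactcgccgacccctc

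Of the 9 members, 7 had a promoter in the table, and Klf5 and Klf10 did not. In the full 250 bases a GC box was present in 7 of 7 members, against 32.7% of 32851 promoters, and the members' windows were 59.2% to 78.4% G or C, with a median of 52.4% over all promoters. The E-box, the site of the clock factors, was found in 3 of 7 (Klf4, Klf6 and Klf15, with 2 in Klf15) and in 6.02% of all promoters. A MEF2 site, the element through which the kinase ERK5 acts, was found in Klf2 alone, 118 to 109 bases before the start, and in 0.508% of all promoters. CACCC boxes were found in 4 of 7 members (28.1% of all), with 1 of them overlapping a GC box in Klf13. Those of Klf2 and Klf3 lay beyond the cut made at an annotated exon. CCAAT boxes (CCAAT) were found in 3 of 7 (33.8% of all), with 4 in Klf6. No member window held a CArG box (1.47% of all), a kappa B site (3.90%) or a CRE (TGACGTCA, 1.55%). A match is a description of the letters only, and binding was not measured.

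The first comparison asked what Ang II did within 24 h in the wall with intact IKKβ. Of the 9 members, 0 rose and 2 fell past the threshold (limma, adjusted p below 0.1 with a change of more than 1.2-fold). Of all genes tested 8.66% were called, 4.33% higher and 4.33% lower. The median change of the members was -0.04 on the log2 scale, beside 0.01 over all genes.

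Klf3 is a repressor that recruits the corepressor CtBP. In saline it had 1698, 1833, 2168, 1995 and 1796 normalized counts in the 5 IKKβ+/+ mice, and with Ang II it had 1056, 1582, 1183, 1411 and 1695. All 5 Ang II mice lay below every saline mouse, the nearest pair being only a few counts apart. The log2 fold change was -0.47 ± 0.11 (SE), with a limma adjusted p of 0.0265, and the exact two-sided permutation p was 0.00794, the smallest this design allows. Groups that do not overlap were found for 8.42% of all genes. Klf3 kept its sign and its adjusted p below the threshold with any mouse left out, with fold changes of -0.55 to -0.38. Klf3 overlaps the transcripts Gm20033 on the opposite strand and C230096K16Rik on its own strand, with medians of 9.65 and 7.15 normalized counts.

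Klf10, the TGFβ-inducible repressor that recruits Sin3a, had 727, 1025, 1093, 600.0 and 846 normalized counts with saline and 371, 505, 535, 515 and 767 with Ang II in IKKβ+/+ mice. Mouse X2359 lay within the saline range, and the other 4 Ang II mice were below all saline mice. Its log2 fold change was -0.68 ± 0.23 (limma adjusted p = 0.0917), and the exact permutation p was 0.0238. This call was at the edge of the threshold. It was lost when any of 9 mice was left out (X2350, X2352, X2358, X2370, X2372, X2373, X2378, X2401 or X2409), at limma adjusted p-values of 0.1004 to 0.256, the highest without X2350. Fold changes with mice left out in turn were -0.81 to -0.55. The call was also lost when the endothelial marker level was a covariate (-0.39, limma adjusted p = 0.326; 0.0414 to 0.326 over the 15 alternatives that leave out no single mouse). The endothelial markers themselves had a median change of -0.67 in this comparison, with 2 of 10 called lower (Cldn5, a tight junction protein, and Tek, the angiopoietin receptor) and 0 called higher. Fibroblast markers had a median of -0.56, with all 8 lower and 1 called (Lum, lumican, -1.27), and of 8 smooth muscle markers 3 were called higher, with a median of 0.33. Their part in the values of Klf10 and Klf3 was not tested.

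Klf6 moved the other way in the same mice without passing the threshold. It had 3162, 3755, 4822, 5028 and 4588 normalized counts with saline and 13030, 4684, 4099, 7222 and 5032 with Ang II. Mouse X2350 was far above the rest, and 3 of 5 Ang II mice were above every saline mouse. The log2 fold change was 0.56 ± 0.26 (limma adjusted p = 0.223), and 0.29 without X2350. It passed with DESeq2 (0.68, adjusted p = 0.0838) and in limma without X2356 (0.71, adjusted p = 0.0999). The other 6 members had fold changes from -0.35 (Klf5) to 0.24 (Klf13), with adjusted p-values of 0.375 to 0.979. For Klf2, the 95% interval of the log2 fold change ran from -0.73 to 0.25, and for Klf4 from -0.49 to 0.40.

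In IKKβ-/- mice, which share no animals with the first comparison, 3 of 9 members fell with Ang II and 0 rose, where 5.29% of all genes were called, 2.69% lower and 2.59% higher. The median of the members was -0.19, beside -0.0029 over all genes. For 4 of 9 members the groups did not overlap, against 5.29% of all genes.

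Klf2, the flow-induced endothelial factor, had 1659, 2157, 1310 and 1988 normalized counts in the 4 IKKβ-/- mice with saline and 995, 444, 1183, 755 and 794 in the 5 with Ang II. Every Ang II mouse was below every saline mouse. The log2 fold change was -1.14 ± 0.25 (limma adjusted p = 0.0177, exact permutation p = 0.0159). In 19 fits that each left out 1 mouse, the fold change was -1.28 to -0.93 and the call held in each. Averaged over both genotypes Klf2 was the only member called with Ang II, at -0.69 ± 0.17 (limma adjusted p = 0.0153), in a comparison where 12.7% of all genes were called.

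Klf6 had 12850, 7501, 5374 and 9378 normalized counts with saline and 4798, 4223, 3797, 3942 and 4086 with Ang II in IKKβ-/- mice. The 4 saline mice were widely spread and the 5 Ang II mice were close together, all below the lowest saline mouse. The log2 fold change was -1.01 ± 0.27 (limma adjusted p = 0.0498, exact permutation p = 0.00794). Without mouse X2401, the highest, it was -0.80 (adjusted p = 0.166), and without X2384 it was -0.97 (adjusted p = 0.103), in a range of 0.0137 to 0.166 over the 19 mice left out in turn.

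Klf7, a broadly expressed factor known from neurons and fat cells, had 1508, 1683, 2002 and 1713 normalized counts with saline and 1470, 1168, 1161, 1143 and 1366 with Ang II. All 5 Ang II mice were below the 4 saline mice, the closest pair being X2380 and X2401. Its log2 fold change was smaller, at -0.45 ± 0.14 (limma adjusted p = 0.0852, exact permutation p = 0.0159). It lost the call when any of 8 mice was left out (X2352, X2372, X2383, X2384, X2385, X2403, X2406 or X2409), at limma adjusted p-values of 0.1006 to 0.232. The highest was without X2406 (-0.38), and the call was also lost without both X2385 and X2406 (-0.34, adjusted p = 0.358), with only these 2 groups fitted (adjusted p = 0.120) and with weights per mouse (-0.39, adjusted p = 0.165). Klf7 overlaps 3 other annotated transcripts (Gm26649, Mir6899 and Gm13748).

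Klf3, in contrast, was higher with Ang II in these mice without passing the threshold. It had 1361, 1380, 1438 and 1488 normalized counts with saline and 1574, 1510, 1579, 1896 and 1770 with Ang II, and all 5 Ang II mice were above the 4 saline mice. The log2 fold change was 0.23 ± 0.12 (limma adjusted p = 0.336, exact permutation p = 0.0159). Klf4 was lower in 4 of 5 Ang II mice than in any saline mouse, at -0.54 ± 0.23 (limma adjusted p = 0.216). The remaining 4 members had fold changes between -0.19 (Klf5) and 0.27 (Klf15), with adjusted p-values of 0.729 to 0.851.

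**Figure D2:**
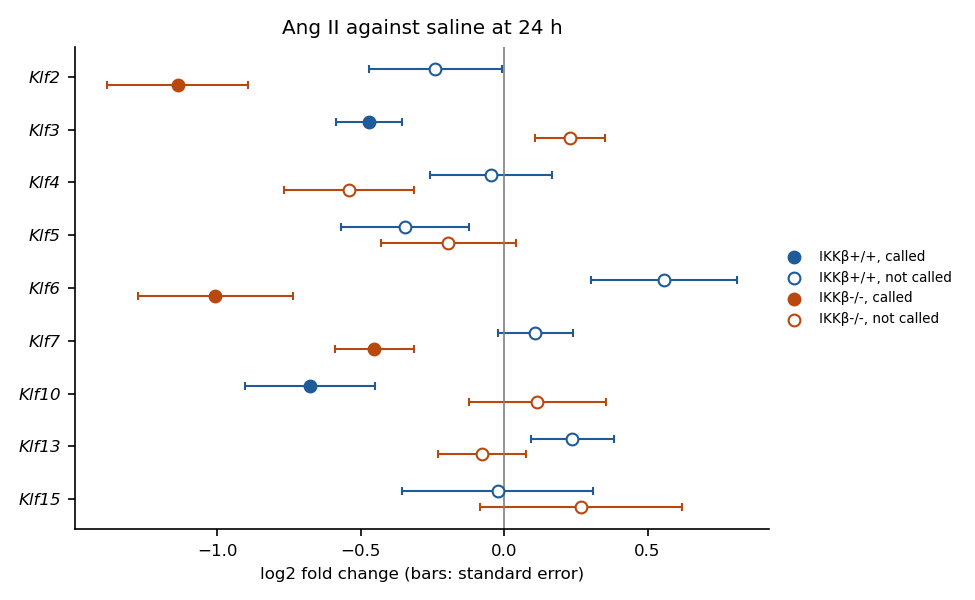
log2 fold change of Ang II against saline (horizontal axis, bars are standard errors) for the 9 factors (vertical axis) in IKKβ+/+ mice (blue) and IKKβ-/- mice (orange), with filled points for members past the threshold. Klf3 and Klf10 are filled in IKKβ+/+ mice at -0.47 and -0.68, and Klf2, Klf6 and Klf7 in IKKβ-/- mice at -1.14, -1.01 and -0.45.

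The 3 members that fell in IKKβ-/- mice did so beside the immediate early genes, which are switched on within minutes of a stimulus or of tissue handling. Of 18 genes of that list, 11 were called lower and 0 higher in this comparison, and the median log2 change was -1.42. The lowest log2 changes were those of Atf3 (-4.18), Fos (-2.91), Fosb (-2.88) and Jun (-2.45). The summed level of the list was 21128 to 53205 normalized counts in the 4 saline mice and 8374 to 9475 in the 5 Ang II mice. In IKKβ+/+ mice 3 genes of the list rose (Maff, Myc and Nr4a2) and 1 fell (Fos), and the summed levels overlapped (10939 to 37447 with saline, 9620 to 31460 with Ang II).

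Over all 19 mice the log2 level of Klf6 followed the mean log2 level of the immediate early list, with a Pearson r of 0.77 and a Spearman rho of 0.78, and r = 0.66 without the 2 mice farthest from the median. For Klf2 r was 0.63 (rho 0.65), and 0.56 without those 2 mice. With group means removed, r was 0.70 for Klf6 (rho 0.64), 0.57 for Klf4, 0.40 for Klf2 and 0.24 for Klf7 (rho 0.15), while for Klf3 and Klf10 it was 0.06 and 0.07. These are descriptions over mice that share a dissection and library, given without a test.

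With the immediate early level as a covariate the Ang II change of Klf6 in IKKβ-/- mice was -0.22 (limma adjusted p = 0.746), that of Klf2 was -0.72 (0.273) and that of Klf7 was -0.32 (0.411), so that 0 of 9 members were called, and 357 genes were called in place of 785. Over the 15 alternatives that leave out no single mouse, adjusted p-values ran from 0.00509 to 0.746 for Klf6, from 0.00109 to 0.426 for Klf2 and from 0.0462 to 0.614 for Klf7. The immediate early level did not overlap between the IKKβ-/- groups (8.07 to 8.48 with Ang II, 9.06 to 10.3 with saline). With that level as a covariate, its part and that of Ang II cannot be told apart. The part of tissue handling in the member changes was not tested.

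**Figure D3:**
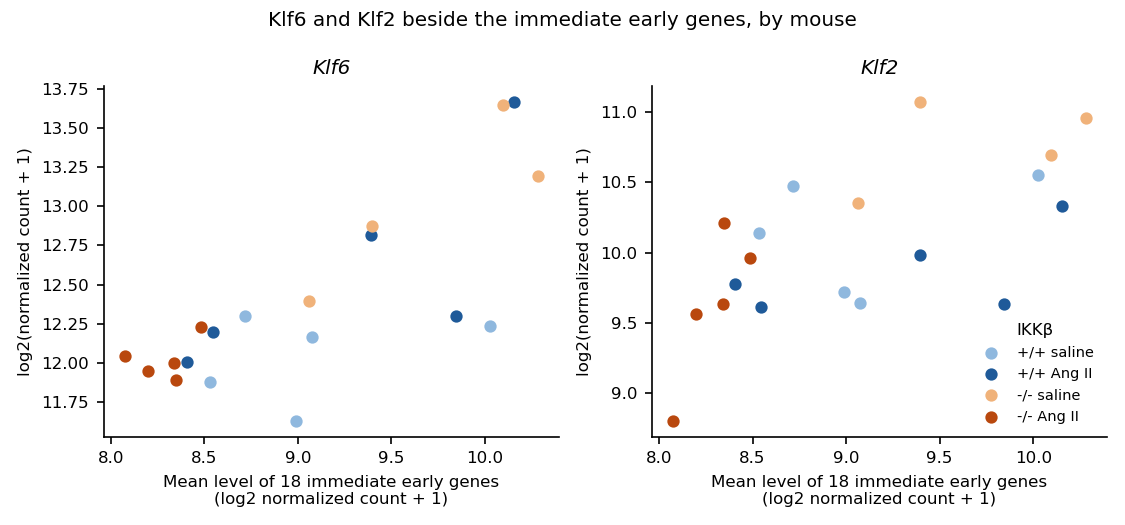
log2(normalized count + 1) of Klf6 (left) and Klf2 (right) against the mean log2 level of 18 immediate early genes, 1 point per mouse, coloured by group. The 5 IKKβ-/- Ang II mice sit at the left, at immediate early levels of 8.07 to 8.48, and the 4 IKKβ-/- saline mice at 9.06 to 10.3.

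Markers of fat moved in the same comparison. All 5 tested adipocyte markers were called higher after Ang II in IKKβ-/- mice. The median of their log2 changes was 4.46, and the summed level of the 6 listed was 1104 to 4372 normalized counts with saline and 3024 to 38135 with Ang II. With the adipocyte level as a covariate 0 members were called (Klf2 -1.31, Klf6 -0.72, Klf7 -0.36), and 14 genes in all. The change of Klf2 was larger in size than without the covariate (-1.14). This covariate is the mean log2 level of the 5 tested markers. It was 5.98 to 8.07 with saline and 8.41 to 12.3 with Ang II, so it and Ang II cannot be told apart. The part of attached fat in the member values was not tested. Of 10 endothelial markers, 1 was called higher after Ang II in IKKβ-/- mice (Kdr, a VEGF receptor, 1.79) and 0 lower. Only 2 of the 10 had a positive change, and the median of the 10 was -0.30. Their summed level was 14811 to 30750 normalized counts with saline and 8290 to 27634 with Ang II. With the endothelial marker level as a covariate all 3 members stayed called. Of 2 tested markers of liver, kidney and adrenal gland, Alb (serum albumin) was lower (-5.32), and the other was higher and not called. The 4 in the table summed to 50.1 to 355 normalized counts with saline and 6.47 to 29.6 with Ang II. The part of such tissue was not tested.

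Whether Ang II acted differently in the genotypes was tested by the interaction term of the same limma fit. It called 0 of the 14845 genes, members included, at an adjusted p under 0.1, while 11.1% of genes (1654) had an unadjusted p under 0.05. By edgeR's quasi-likelihood test 3 genes and 0 members were called, and by DESeq2 279 genes and 2 members, Klf6 (adjusted p = 0.00563) and Klf3 (adjusted p = 0.0248). Of the 9 members, 5 had an unadjusted p under 0.05. The difference was -1.56 ± 0.37 on the log2 scale for Klf6 (limma adjusted p = 0.215), the 29th gene of all by p. It passed without X2356 (-1.71, limma adjusted p = 0.0710) or without X2406 (-1.77, adjusted p = 0.0896). Klf3 was close behind at 0.70 ± 0.17 (limma adjusted p = 0.215). For Klf7 it was -0.56 ± 0.19 (adjusted p = 0.308), for Klf2 -0.90 ± 0.34 (0.354) and for Klf10 0.79 ± 0.33 (0.389). The other 4 members had differences from -0.50 to 0.29 with adjusted p-values of 0.545 to 0.876. A difference in the response of any member was thus not established by the main test.

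The genotypes were next compared within each infusion, a comparison that shares its mice with those above. With saline, 2 of 9 members were called between IKKβ-/- and IKKβ+/+ mice, where 5.47% of all genes were called, 3.40% higher and 2.07% lower in IKKβ-/- mice. The groups did not overlap for the same 2 members, against 8.76% of all genes, and the median of the 9 was 0.35 beside -0.02 over all genes. Klf6 was higher in all 4 IKKβ-/- mice (mean 8776 ± 3170, SD) than in any of 5 IKKβ+/+ mice (4271 ± 786), with a log2 difference of 0.99 ± 0.27 (limma adjusted p = 0.0662, exact permutation p = 0.00794). Klf3 was lower in all 4 (1417 ± 57.8 against 1898 ± 185), at -0.42 ± 0.12 (limma adjusted p = 0.0778, exact permutation p = 0.00794).

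Both calls were fragile. Without mouse X2406 Klf6 was at 1.2 (limma adjusted p = 0.124) and Klf3 at -0.42 (0.196), and neither was called when X2370, X2372, X2373, X2401 or X2403 was left out instead. Klf3 also lost its call without X2376 (0.141), and both lost it with the mitochondrial share as a covariate, where the differences were larger in size (Klf6 1.28, limma adjusted p = 0.123, and Klf3 -0.49, adjusted p = 0.191). Without both X2385 and X2406 the adjusted p was 0.139 for Klf6 and 0.202 for Klf3, and 19 genes in all were called in place of 812. Adjusted p-values over the mice left out in turn ran from 0.0333 to 0.158 for Klf6 and from 0.0492 to 0.196 for Klf3.

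Adipocyte markers had a median difference of -2.36 between the saline groups, with all 5 tested lower in IKKβ-/- mice. Limma called 0 of these 5, edgeR 1 and DESeq2 4, with 4 at an unadjusted p under 0.05, and the summed level of the 6 listed was 981 to 13280 normalized counts in IKKβ+/+ mice and 1104 to 4372 in IKKβ-/- mice. With the adipocyte level as a covariate Klf6 was at 0.84 (limma adjusted p = 0.167) and Klf3 at -0.40 (adjusted p = 0.158). Alb was higher in IKKβ-/- saline mice (2.97, limma adjusted p = 0.0779), while the other tested marker of liver, kidney and adrenal gland was lower and not called. Fibroblast markers had a median of -0.49, with all 8 lower, 0 called by limma, edgeR or DESeq2 and 2 at an unadjusted p under 0.05. Among markers of other cell types in this contrast, 2 of 8 macrophage markers were called lower in IKKβ-/- mice (Adgre1 -1.02 and Cd68 -0.93), and limma and edgeR called 0 of 10 endothelial markers (3 with an unadjusted p under 0.05, 2 called by DESeq2). Their part in the member values was not tested.

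Klf7 (0.42 ± 0.14, limma adjusted p = 0.106) and Klf2 (0.67 ± 0.25, adjusted p = 0.144) were higher in 3 of 4 IKKβ-/- saline mice than in any IKKβ+/+ saline mouse and did not pass the threshold. They passed it when only the groups compared were fitted, with weights per mouse, or with DESeq2. These settings also called more genes in all, 1420, 1902 and 1437 in turn, in place of 812. Klf2 passed as well with the endothelial level as a covariate (0.92, limma adjusted p = 0.0496), the endothelial markers having a median difference of -0.61 in this contrast. The other 5 members had differences from -0.39 (Klf10) to 0.53 (Klf15). In the order IKKβ+/+ saline, IKKβ+/+ Ang II, IKKβ-/- saline and IKKβ-/- Ang II, mean normalized counts of Klf6 were 4271, 6813, 8776 and 4169. Those of Klf7 were 1299, 1396, 1726 and 1262, and those of Klf2 were 1139, 949, 1778 and 834.

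With Ang II, limma called 0 of 9 members between the genotypes, where 0.128% of all genes (19) were called, the groups of 1.54% did not overlap and 14.3% had an unadjusted p under 0.05. Unadjusted p-values under 0.05 were found for 3 members, and edgeR and DESeq2 also called 0. Klf15, the glucocorticoid-induced factor of amino acid and lipid metabolism, had 164, 348, 589, 421 and 555 normalized counts in IKKβ+/+ Ang II mice and 511, 1128, 811, 761 and 375 in IKKβ-/- Ang II mice. The groups overlapped, with 3 of 5 IKKβ-/- mice above all IKKβ+/+ mice, and the log2 difference was 0.82 ± 0.33 (limma adjusted p = 0.281). Klf6 was at -0.57 ± 0.26 (0.317) and Klf3 at 0.28 ± 0.11 (0.281), so each had the opposite sign to its difference with saline.

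Averaged over both infusions limma called 0 members, where 7.24% of genes were called, 22.1% had an unadjusted p under 0.05 and edgeR called 0 members. Klf15 came closest at 0.67 ± 0.24 (limma adjusted p = 0.119), the only member with an unadjusted p under 0.05, and DESeq2 called it (adjusted p = 0.0509), as did limma without X2356 (adjusted p = 0.0849) or X2386 (0.0743). The interval of its difference ran from 0.17 to 1.18.

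**Figure D4:**
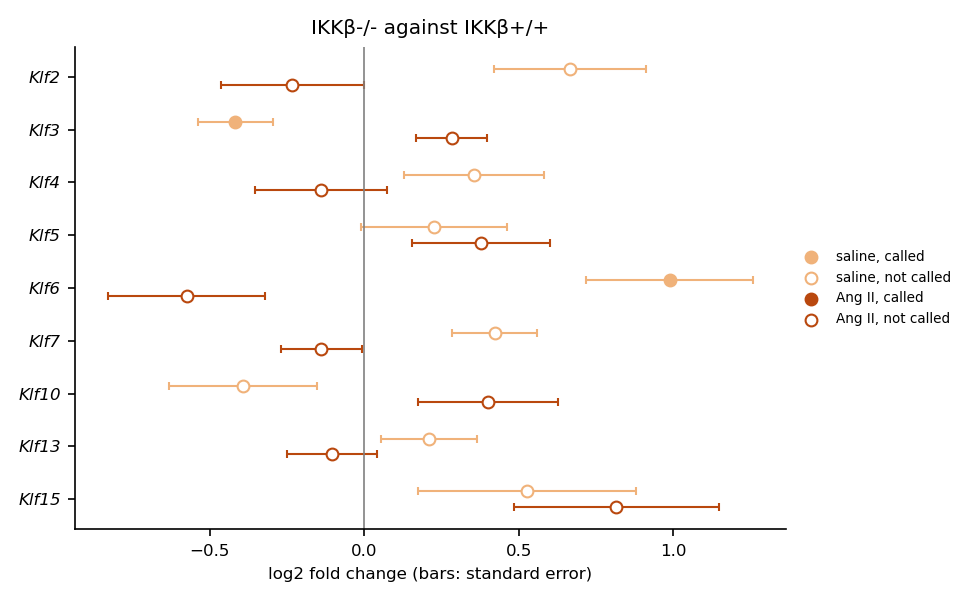
log2 difference of IKKβ-/- against IKKβ+/+ mice (horizontal axis, bars are standard errors) for the 9 factors with saline (light) and with Ang II (dark), with filled points for members past the threshold. Klf6 at 0.99 and Klf3 at -0.42 are filled with saline, and no point is filled with Ang II.

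The clock genes moved with the same contrast between saline groups. Of 17 clock genes, 12 were called, 9 higher (Ciart 3.37, Dbp 2.7) and 3 lower (Arntl -2.93, Npas2 -2.13, and Clock -0.65) in IKKβ-/- mice, and 11 were called with Ang II in IKKβ-/- mice, 3 higher and 8 lower. Arntl and its partners bind the E-box, and Dbp and Ciart are among their targets. With the clock level as a covariate 0 members were called between the saline groups (Klf6 0.54, limma adjusted p = 0.428; Klf3 -0.47, adjusted p = 0.185) and 0 with Ang II in IKKβ-/- mice, where 0 and 18 genes in all were called. The clock level is the mean log2 level of all 17 genes, which moved in both directions, so it is not a measure of clock phase. It was 9.36 to 9.67 in IKKβ-/- saline mice. In IKKβ+/+ saline mice it was 8.20 to 9.30, and in IKKβ-/- Ang II mice 8.37 to 9.05. Because these ranges do not overlap, the covariate cannot be told apart from genotype or Ang II in those fits. The hour of collection is not given in the sources used here, and its part was not tested.

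The 9 factors did not move as a block within groups. With group means removed, 16 of 36 pairs had a positive correlation, with a median r of -0.03. The highest was that of Klf2 and Klf4 (r = 0.69, rho = 0.66), followed by Klf3 and Klf10 (r = 0.50). Klf6 went with Klf4 (r = 0.45) and Klf2 (r = 0.44). The lowest were Klf10 with Klf13 (r = -0.58) and Klf5 with Klf6 (r = -0.50). Beside the endothelial marker level, Klf10 had r = 0.59, Klf2 r = 0.58 and Klf13 r = -0.62, while beside the smooth muscle level Klf13 had r = 0.48, Klf6 r = 0.45, Klf5 r = -0.48 and Klf10 r = -0.40.

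**Figure D5:**
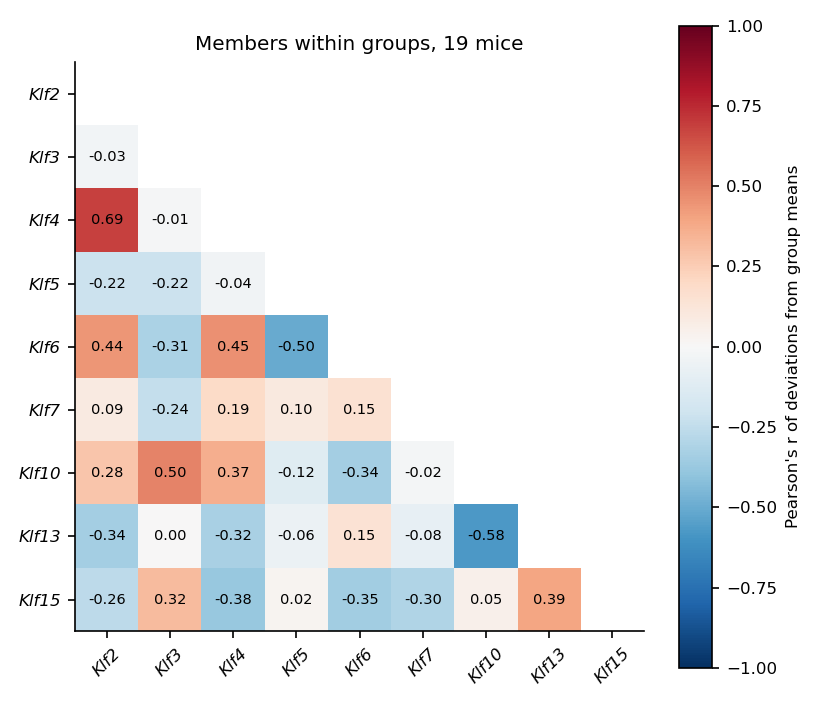
Pearson's r between pairs of the 9 factors over 19 mice, from log2 values with the mean of each group removed, on a scale from -1 (blue) to 1 (red). Klf2 with Klf4 has the highest value, 0.69, and Klf10 with Klf13 the lowest, -0.58.

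Among 11421 genes with a mean of at least 50 normalized counts, the 3 nearest to each member by Pearson's r over the 19 mice were listed. Klf6 had the closest neighbours, Ier3 (r = 0.92, rho = 0.87), an immediate early gene, Gja1 (r = 0.90), the gap junction protein connexin 43, and Csrnp1 (r = 0.89). Klf2 was nearest to Hspa1b (r = 0.80), Mknk2 (0.79) and Hspa1a (0.78), and Klf4 to Sertad1 (0.79), Hsp90ab1 (0.79) and Hspa1b (0.79). These values pool the groups. With group means removed, r was 0.54 to 0.59 for the neighbours of Klf2 and 0.72 to 0.79 for those of Klf4. Without the 2 mice farthest from the median of the member, it was 0.80 to 0.82 and 0.61 to 0.66. Hspa1a and Hspa1b are near-identical heat shock genes, so the split of reads between them is uncertain. Klf13 was nearest to Smtn (0.88), a contractile smooth muscle protein, Eef2k (0.86) and Cacna1c (0.81), the L-type calcium channel. Klf10 was nearest to Fgd5 (0.84), an endothelial exchange factor, Trim30a (0.83) and Pcdh19 (0.82). For Klf7 these were Tmod1, Map1b and Son (0.82 to 0.85), for Klf3 Cdkn2aip, Erap1 and Frmd4b (0.77 to 0.78), for Klf5 Gata3, Tmem135 and Usf1 (0.78 to 0.80), and for Klf15 Osbpl1a and Pdp2 (0.80 and 0.78).

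The rest of the KLF and SP family was listed by name, 17 genes, of which 13 were in the table and 9 were tested. Klf11, like Klf10 a TGFβ-inducible repressor, fell with Ang II in IKKβ-/- mice, from 593 ± 62.8 normalized counts (SD, n = 4) to 315 ± 129 (n = 5), a log2 change of -0.995 ± 0.26 (limma adjusted p = 0.0400). It was the only one of the 9 called there. Klf9, a glucocorticoid target, was the only one called between the saline groups, at 8660 ± 216 (n = 4) in IKKβ-/- mice and 4713 ± 1173 (n = 5) in IKKβ+/+ mice, a log2 difference of 0.92 ± 0.18 (limma adjusted p = 0.0367), and it was also called when averaged over both infusions (0.61). Klf11 was called with Ang II averaged over genotypes as well (-0.75). Limma called Klf12 only with Ang II averaged over genotypes (-0.47 ± 0.13, limma adjusted p = 0.0317). In IKKβ+/+ mice 0 of 9 passed with Ang II in limma, edgeR or DESeq2 and 1 had an unadjusted p under 0.05, with a median of -0.17. Klf8, Klf16, Sp1, Sp2, Sp3 and Sp4 were called in none of the 7 comparisons by limma, while DESeq2 called 2 of the 9 between genotypes averaged over infusions, where limma called 1, and Klf1, Klf14, Sp6 and Sp7 were too low to test.

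Upstream of Klf2 and Klf4 lies the kinase cascade of Map3k3, Map2k5 and Mapk7 (ERK5), which acts on MEF2 factors and is restrained by the CCM proteins. Of 12 genes of this group, 3 fell with Ang II in IKKβ+/+ mice and 0 rose: Heg1, the receptor of the CCM complex (-0.88), Mef2c (-0.61) and Map3k2 (-0.37). In IKKβ-/- mice, where Klf2 fell, 0 of 12 passed in limma, edgeR or DESeq2 and 1 had an unadjusted p under 0.05, with a median of -0.09. Heg1 was also lower in IKKβ-/- mice with saline (-0.78).

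Of 10 tested genes known as endothelial targets of Klf2 and Klf4, 3 fell with Ang II in IKKβ+/+ mice: Tek (-1.08), which is also among the endothelial markers, Nos3, the endothelial nitric oxide synthase (-0.95), and Slco2a1, a prostaglandin transporter (-0.80). In IKKβ-/- mice Thbd, thrombomodulin, rose by 0.74 ± 0.17 (limma adjusted p = 0.0204) while Klf2 fell, and limma called no other of the 10, where edgeR called 1, DESeq2 called 3 and 5 had an unadjusted p under 0.05. Of the 10 corepressors and partners, Fhl3 rose in IKKβ+/+ mice (1.29), and limma called Ctbp1, Ctbp2, Sin3a and Sin3b in none of the 7 comparisons. DESeq2 called 2 of the 10 with Ang II in IKKβ+/+ mice, 1 in IKKβ-/- mice, as did edgeR, and 2 between the saline groups.

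Contractile genes are known to be repressed by Klf4. In IKKβ+/+ mice 5 of 21 rose with Ang II (Actg2 1.11, Des 0.86, Cnn1 0.82, Tpm2 0.80, and Tagln at 0.66) and 1 fell (Mrtfb, a coactivator of SRF, -0.47), while in IKKβ-/- mice 0 of 21 passed in limma, edgeR or DESeq2 and 2 had an unadjusted p under 0.05, with a median of -0.17. Whether the change of these genes differed between genotypes was tested by the interaction, by which limma and edgeR called 0 of 21, DESeq2 called 4 and 7 had an unadjusted p under 0.05. Of 17 synthetic-state genes and partners of Klf4 and Klf5, S100a4 (1.65) and Lgals3 (1.63) rose in IKKβ+/+ mice and Myh10 fell (-0.70). In that comparison 8 of the 17 had a positive change, with a median of -0.02, and edgeR and DESeq2 each called 6. In IKKβ-/- mice Egr1 fell (-1.91). Klf4 itself was at -0.04 ± 0.21 in IKKβ+/+ mice.

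The TGFβ pathway, in which Klf10 and Klf11 act, was read from 18 genes. In IKKβ+/+ mice, where Klf10 fell, 1 rose, Pmepa1, a feedback inhibitor (0.63), and in IKKβ-/- mice 2 fell, Bambi, a decoy receptor (-1.17), and Klf11. edgeR and DESeq2 each called 3 of the 18 in either comparison, and 4 and 8 had an unadjusted p under 0.05. Of 17 tested glucocorticoid-responsive genes and targets of Klf15, 7 rose with Ang II in IKKβ+/+ mice, led by Mt2 (2.82), Errfi1 (1.80) and Mt1 (1.503), and the receptor gene Nr3c1 fell (-0.50). In IKKβ-/- mice 2 rose, Mt2 (1.84) and Bcat2, an enzyme of branched-chain amino acid breakdown (0.88), and 2 fell, Per1 (-1.43) and Dusp1 (-1.33). Klf15 itself was at -0.02 ± 0.33 and 0.27 ± 0.35 in these comparisons.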

How the data were processed

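Suprarenal aortas of 19 mice were profiled by poly(A) RNA-Seq. Per the labels and the study's methods, the authors trimmed reads with Trimmomatic 0.35, aligned them with STAR 2.7.1a to GRCm38 and normalized with DESeq2 1.30.1, and RSEM is listed among the tools. The deposited signal values are counts divided by a size factor per library, and whole reads were recovered from them (100% of values within 0.05 of a whole number; for X2359, whose step is close to 1, this cannot be told from rounding). Of 20408 genes, 14845 reached 10 normalized counts in 4 mice or more and were tested. The main test was limma 3.58.1 (R 4.3.3) with a mean-variance trend on log2(normalized count + 1), which understates changes of low genes, 1 mean per group, and Benjamini-Hochberg adjustment over all genes tested. Genes were called at an adjusted p below 0.1 with a change of more than 1.2-fold. edgeR 4.0.16 and DESeq2 1.42.0 on the recovered reads were alternatives, and the fits were tested on simulated data.

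The members and gene lists were chosen with earlier results of these data known. All 9 members are described. Of the listed genes, those called are named, up to 4 per list and comparison, and the 3 genes nearest to each member by Pearson's r, of which 1 is not reported here. A few listed genes beyond that number were named after their values were seen. Gene positions follow Gencode M21, while the authors' annotation was M25. Groups came from the labels, and the mouse numbers do not pair samples across groups. Promoters are RefSeq's.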

Additional observations from a re-analysis of the deposited data

Results flagged for a closer look

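Dixon's test on each member in each of the 4 groups (36 checks, of which chance alone flags about 1 in 20) marked 2 mice. Klf4 was 986 normalized counts in IKKβ-/- Ang II mouse X2383, with the other 4 at 1414 to 1577. Klf5 was 158.5 in IKKβ-/- saline mouse X2406, with the other 3 at 98.7 to 108, and this mouse also had one of the 2 highest mitochondrial shares of reads.

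For 5 members the Ang II effect differed between the genotypes at an unadjusted p under 0.05, and limma's adjusted p was above 0.1 for each. The difference (IKKβ-/- minus IKKβ+/+, log2) was -1.56 for Klf6, 0.70 for Klf3, -0.56 for Klf7, -0.90 for Klf2 and 0.79 for Klf10. By DESeq2 Klf6 and Klf3 passed the threshold.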

How the results depend on the processing

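Counts of members called depended on the processing mainly where calls were near the threshold. With Ang II in IKKβ+/+ mice (2 called) the count was 1 with no filter on low values, at an adjusted p under 0.05, at a fold change above 1.5, with the immediate early or endothelial level as a covariate, and without X2385 and X2406; leaving out 1 mouse at a time it was 1 to 3. In IKKβ-/- mice (3 called) it was 0 with the immediate early, adipocyte or clock level as a covariate, 2 with only the groups compared, with weights per mouse, at an adjusted p under 0.05, at a fold change above 1.5 and without X2385 and X2406 (Klf7 being lost in each), and 1 to 3 with mice left out in turn. Averaged over genotypes (1 called) it was 0 with the clock covariate, and 1 with any mouse left out. Between the saline groups (2 called) it was 4 with only those groups fitted, with weights per mouse and with DESeq2, 1 at a fold change above 1.5 and with the immediate early or endothelial covariate, and 0 at an adjusted p under 0.05, with the adipocyte or clock covariate, without X2385 and X2406 and with the mitochondrial share as a covariate, and 0 to 3 with mice left out in turn. Between the Ang II groups it stayed at 0 under every alternative run. Averaged over infusions (0 called) DESeq2 gave 1, with 0 to 1 for mice left out. For the difference of the Ang II effect (0 called) weights per mouse gave 1 and DESeq2 2, with 0 to 1 for mice left out. Leaving out X2385 and X2406 and the mitochondrial covariate were chosen after seeing the data. Fitting only the groups compared gives no value for the averages and the difference. DESeq2 called 521 genes between the Ang II groups in place of 19. Between the saline groups, the settings that gave 4 members called 1420, 1902 and 1437 genes in all, in place of 812. The immediate early, adipocyte and clock levels did not overlap between the IKKβ-/- groups, so those covariates and Ang II cannot be told apart. With saline, the clock level and genotype cannot be told apart either. The cause of the shifts in counts was not tested, except that fewer or more mice and genes enter some fits.

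Of 694 single log2 changes under the alternatives that leave out no single mouse, 627 kept their direction and side of the threshold, 35 lost the call, 12 gained it and 20 changed sign, all among members not called. With Ang II in IKKβ+/+ mice, Klf2 was 0.0443 and Klf4 0.16 with the endothelial covariate, and Klf15 was 0.11 with weights, 0.0605 with edgeR, 0.0607 with DESeq2, 0.0052 with the immediate early, 0.12 with the clock and 0.0435 with the mitochondrial covariate. In IKKβ-/- mice Klf10 was -0.21 and Klf13 0.13 with the adipocyte, Klf10 -0.24 and Klf13 0.17 with the clock, and Klf13 0.0607 with the immediate early covariate, and Klf10 -0.0113 without X2385 and X2406. Between the Ang II groups Klf2 was 0.0532 and Klf4 0.22 with the immediate early and Klf13 0.0744 with the mitochondrial covariate. For the difference, Klf4 was 0.11 and Klf5 -0.29 with the immediate early and Klf5 -0.24 with the adipocyte covariate. With mice left out in turn, signs changed for Klf4 (-0.21 to 0.075) and Klf15 (-0.18 to 0.28) with Ang II in IKKβ+/+ mice, Klf13 (-0.19 to 0.0466) in IKKβ-/- mice, Klf4 (-0.24 to 0.0288) between the Ang II groups, and Klf5 (-0.0593 to 0.30) and Klf15 (-0.0119 to 0.55) for the difference. Klf5, with 45 to 204 reads per library, is the member whose values depth limits most. No paired analysis was possible because the groups share no mouse numbers.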
